A study of Arabidopsis thaliana with 2 samples.

Results

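Expansins and xyloglucan endotransglucosylase/hydrolases (XTHs) are 2 families of secreted proteins that loosen or rearrange the plant cell wall. The 67 genes described here were taken from all Arabidopsis thaliana gene probes of an Agilent array whose description or symbol names either family, with the probe of highest intensity kept for each locus, whatever its flags. They comprised 35 expansins and 32 XTHs among 26385 loci with a named probe. The expansins were 25 alpha-expansins (EXPA), 6 beta-expansins (EXPB), 3 expansin-like A genes (EXLA) and 1 expansin-like B gene (EXLB). The XTHs were XTH1 to XTH26, which are 26 genes of groups I and II, and 6 genes of group III, XTH28 to XTH33. XTH27 carries another name on the array and was not found by these words.

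RNA came from young leaves of plants of the Columbia-0 accession at day 30. Each of 2 arrays, which the labels call biological replicates, compared RNA of the transgenic line 35S:NROB #2 with RNA of wild type (WT). The study asked which genes the NROB transgene regulates. The prefix 35S is the usual name of a cauliflower mosaic virus promoter that drives a transgene in most plant tissues. What NROB is, and how its own transcript differed, could not be read from the labels, so the transgene was not checked here. The labels name 1 transgenic line, so a property of that line and an effect of the transgene cannot be told apart. WT carried the dye Cy5 and 35S:NROB #2 the dye Cy3 on both arrays, so dye and genotype cannot be told apart either. Whether a replicate was a single plant or a pool is not stated, and p-values measure only the spread between the 2 arrays. In whole leaves, fewer cells of a type and less RNA per cell cannot be told apart.

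A growing plant cell is held by cellulose microfibrils tethered by xyloglucan, a branched glucan. Expansins, which act best at acid pH, let these polymers slip without cutting them. XTHs cut a xyloglucan chain and either join the new end to another xyloglucan chain or, as hydrolases, release it to water. Both are large families in Arabidopsis, with members known for different organs, for response to touch and hormones, and for growth of root hairs, leaves or stems.

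The values are normalized intensities in arbitrary units, which cannot be compared between probes, and log2 ratios of 35S:NROB #2 over WT, positive where the transgenic line was higher. Each array gave a probe 1 deposited flag for both channels, P or A for these genes. By the values, A mostly marks probes dim in at least 1 channel, so a gene bright in 1 genotype can carry it. The lowest intensities among P-flagged gene spots were 35.1 and 51.0 in 35S:NROB #2 and 28.03 and 25.4 in WT on arrays 1 and 2. Of the members, 15 expansins and 17 XTHs were flagged P on both arrays, which is 32 of 67, against 16956 of 26385 loci. The 4 leaf markers (small subunit of Rubisco, Rubisco activase, a carbonic anhydrase and a chlorophyll a/b protein) lay between 82024 and 255516 in all samples, and none passed the test. No root, flower or seed marker was flagged P on both arrays.

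The families differed in the size of their ratios, and their directions differed only in part. Among members flagged P on both arrays, the median log2 ratio was -0.31 for the XTHs and -0.61 for the expansins. XTHs held the largest ratios in both directions, with mean log2 ratios between -2.61 and 4.73, against -1.65 to 0.80 for the expansins. The highest values, of XTH23 and EXPA7, rest on WT spots too dim to measure. Among members flagged P on both arrays, the XTHs lay between -2.61 and 3.22 and the expansins between -1.65 and 0.49. By limma with Benjamini-Hochberg adjustment over all loci, 5 XTHs rose in 35S:NROB #2 (XTH10, XTH11, XTH23, XTH25 and XTH29) and no XTH fell. The same limma test at an adjusted p under 0.05 called 4.14% of all loci higher and 1.67% lower, and 15.6% of the XTHs higher. Among the expansins, EXPB3 fell and none rose. At an unadjusted limma p under 0.05, 28.8% of all loci passed. These 6 calls did not hold in every fit. After median centring of each array, loess, quantile normalization or an added offset of 50, no locus passed limma, although 6411 to 7045 loci had an unadjusted p under 0.05, and the lowest adjusted p of any member lay between 0.160 and 0.178.

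The study's own criterion was a mean change of more than 2-fold over its replicates, which is not a test. Applied here with the added condition that both arrays point the same way, it took 8 XTHs as higher and 3 as lower, and no expansin as higher and 5 as lower. Over all loci the same rule took 6.35% as higher and 4.26% as lower, beside 25% and 9.38% of the XTHs and 0 and 14.3% of the expansins. Several of these members were too dim to measure in a genotype. With those set to the lowest P-flagged intensity, and with genes dim in both genotypes left uncounted, 6 XTHs remained past 2-fold as higher and 2 as lower, and 4 expansins as lower. Over all loci such bounds gave 4.20% higher and 2.63% lower.

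**Figure D1:**
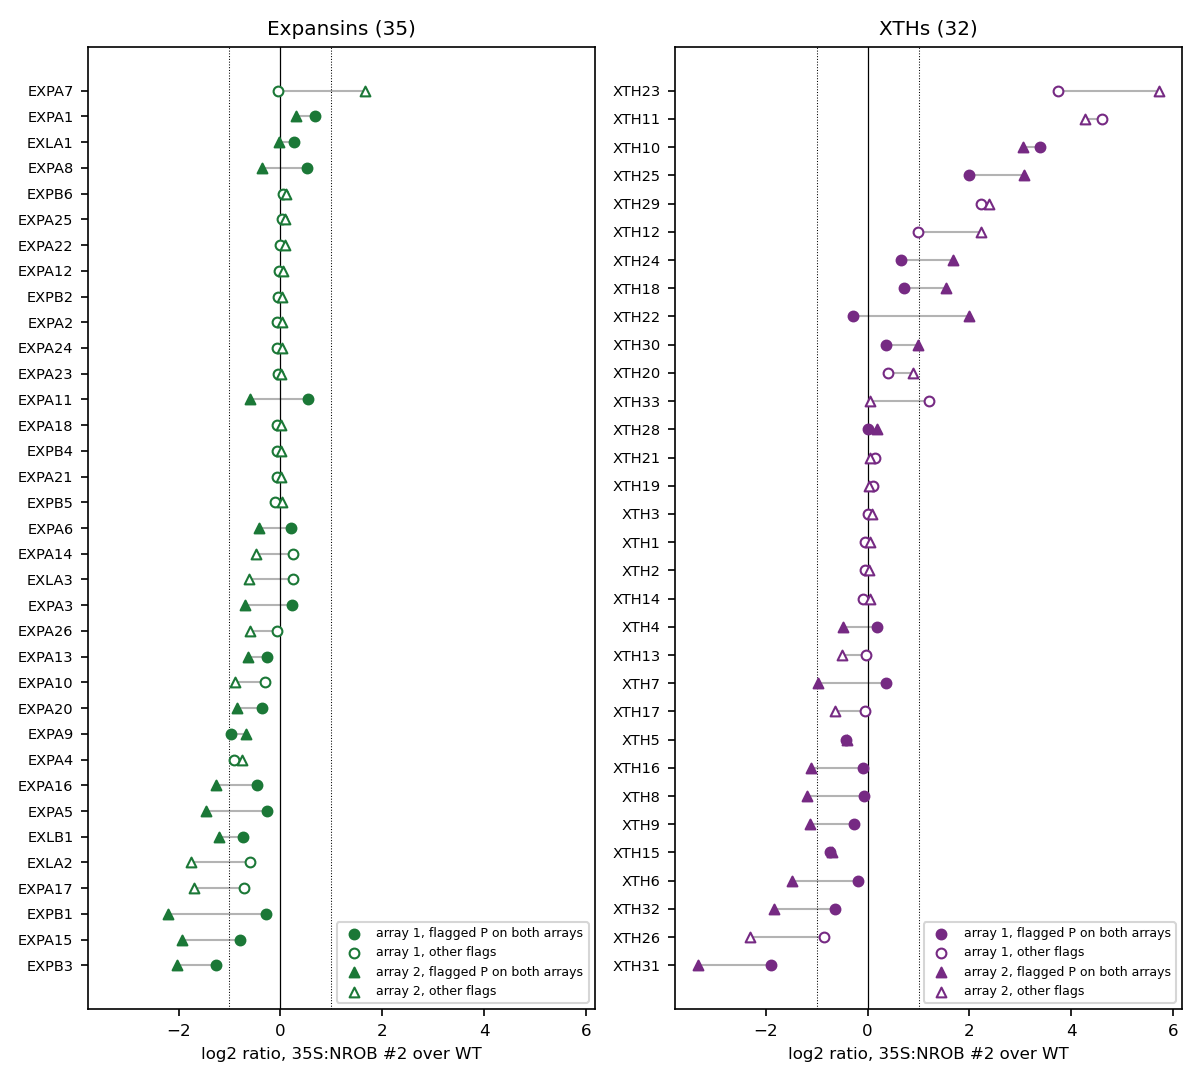
Log2 ratio of 35S:NROB #2 over WT for each of 35 expansins (left) and 32 XTHs (right) on array 1 (circles) and array 2 (triangles), ordered by mean, with filled symbols for genes flagged P on both arrays and dotted lines at a 2-fold change. XTHs extend to 5.72 on the upper side and -3.32 on the lower side, both on array 2, whereas most expansins off 0 lie on the negative side.

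Over all members, the median log2 ratio was -0.10 for the expansins and 0.02 for the XTHs, beside -0.01 for all loci, and the expansin median minus the XTH median was -0.12. These medians include 13 expansins and 9 XTHs too dim to measure in both genotypes, whose ratios lie near 0 at the floor. The median was -0.60 over the 20 expansins and 0.10 over the 23 XTHs that had a value or a bound, and -0.61 and -0.31 over those flagged P on both arrays. Without the lower quartile of intensity the difference of the medians was -0.70. Such members were kept by their intensity, so these medians are a description. Over all members, the difference of the medians was -0.076 on array 1 and -0.52 on array 2. Among members flagged P on both arrays, that difference was -0.19 on array 1 and -0.21 on array 2. Members whose log2 ratio had the same sign on both arrays numbered 3 higher and 14 lower among the expansins, and 15 higher and 11 lower among the XTHs. Among all loci, 34.8% were higher and 36.0% lower on both arrays. Of the 15 higher XTHs, 9 were not flagged P on both arrays. Among members flagged P on both arrays, 1 expansin was higher and 9 lower, and 6 XTHs were higher and 8 lower. Of all loci so flagged, 37.8% were higher and 43.3% lower. The arrays gave opposite signs for 18 expansins and 6 XTHs, beside 29.2% of all loci. Of those 18 expansins, 13 were not flagged P on both arrays, and the sign of a ratio at the floor carries no direction. The intensities of the genotypes did not overlap for 1 higher and 13 lower expansins, and for 11 higher and 9 lower XTHs. Without overlap, 22.2% of all loci were higher and 24.2% lower. With a P flag on both arrays, these counts were 1 and 9 for expansins and 5 and 8 for XTHs. The shares of all loci so flagged were 23.2% and 30.1%. The interquartile range of the mean log2 ratios was 0.81 for the expansins, 1.38 for the XTHs and 0.48 for all loci.

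The first group of genes that rose belongs to XTH groups I and II. XTH10 had intensities of 1018 and 1199 in 35S:NROB #2 leaves, against 97.8 and 144 in WT leaves. The transgenic values were about an order of magnitude above the WT values, and the genotypes did not overlap. The log2 ratios were 3.38 and 3.06, with a mean of 3.22 ± 0.22 (SD, n = 2), a 9.32-fold increase with a limma adjusted p of 0.0178. Both arrays flagged this probe of XTH10 P, and when only probes flagged P on both arrays were fitted its limma adjusted p was 0.0345. XTH10 has a second probe, not flagged P on both arrays, and the mean over its probes was 1.83 (limma adjusted p = 0.0165).

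XTH25 had 1158 and 1771 in 35S:NROB #2 leaves, against 290.0 and 211 in WT leaves. Both transgenic samples lay above both WT samples. Its log2 ratios of 2.00 and 3.07 averaged 2.54 ± 0.76, which is 5.80-fold, with a limma adjusted p of 0.0398. Among probes flagged P on both arrays alone, its limma adjusted p was 0.0544.

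XTH23, which the array's annotation calls XTR6, had 269 and 664 in 35S:NROB #2 leaves, against 20.0 and 12.6 in WT leaves. The WT spots lay under the lowest P-flagged WT intensity on both arrays, so only a bound can be given, at least 15.8-fold higher with a limma adjusted p of 0.0359. The bound sets the mean log2 intensity of the bright genotype against that lowest intensity on each array. Limma p values printed beside such bounds, here and below, come from the unbounded ratios, dim values included, and do not test the bound. XTH11 had 149 and 179 in 35S:NROB #2 leaves, against 6.16 and 9.21 in WT leaves. It was at least 6.12-fold higher, with a limma adjusted p of 0.0148, and the WT spots were again too dim to measure. Both arrays flagged XTH23 and XTH11 A, so neither gene entered the fit of probes flagged P on both arrays.

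The fifth gene that rose, XTH29, belongs to group III. It had 36.2 and 52.9 in 35S:NROB #2 leaves, against 7.70 and 10.1 in WT leaves. The transgenic spots themselves lay just above the lowest P-flagged intensity of their channel, and both arrays flagged the gene A. XTH29 was at least 1.64-fold higher, which falls short of 2-fold as a bound. Its limma adjusted p of 0.0204 belongs to the unbounded log2 ratios of 2.23 and 2.39, for which the WT spots were too dim to measure.

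**Figure D2:**
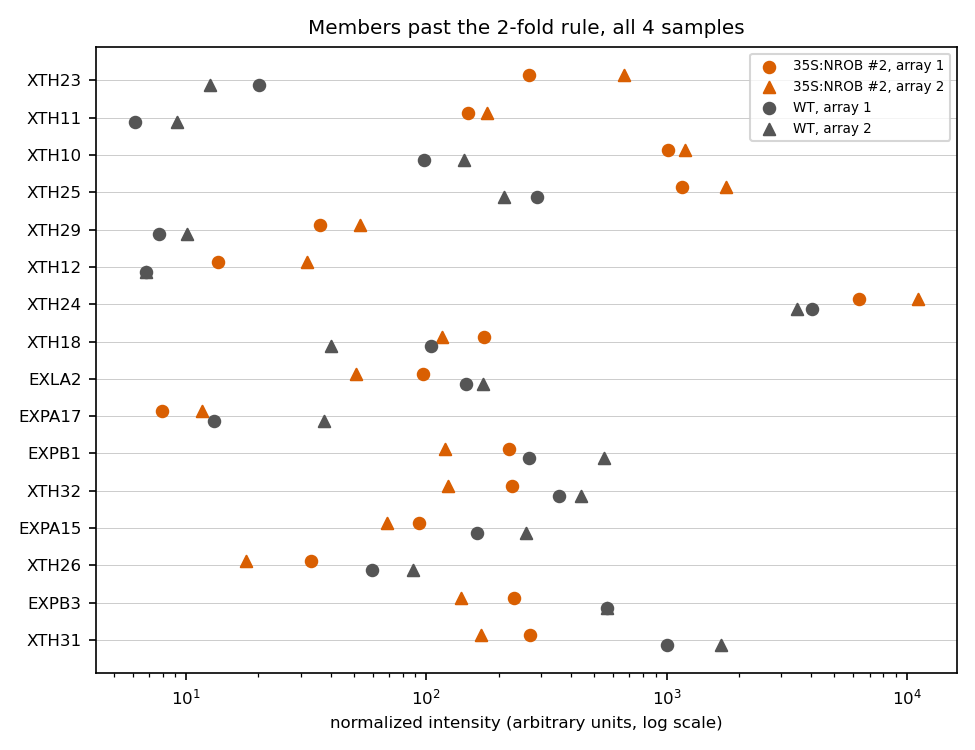
Normalized intensity (arbitrary units, log axis) of the 16 members past the 2-fold rule in all 4 samples, with 35S:NROB #2 in orange above WT in grey, circles for array 1 and triangles for array 2. XTH10 has 1018 and 1199 in 35S:NROB #2 and 97.8 and 144 in WT, whereas XTH31 has 270 and 168 in 35S:NROB #2 and 1007 and 1684 in WT.

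Among the XTHs that were past 2-fold without passing limma, XTH24, also called MERI5 and known from meristems, had 6341 and 11123 in 35S:NROB #2 leaves, against 4047 and 3493 in WT leaves. The groups did not overlap, and the distance was wider on array 2. Its log2 ratios were 0.65 and 1.67 (limma adjusted p = 0.104), and its 5 probes gave means between 1.00 and 1.19. XTH18, known mainly from roots, had 173 and 117 in 35S:NROB #2 leaves, against 105 and 40.2 in WT leaves. Its log2 ratios were 0.72 and 1.54 (limma adjusted p = 0.0832). XTH12 had 13.5 and 31.8 in 35S:NROB #2 leaves, against 6.80 and 6.82 in WT leaves, all under the lowest P-flagged intensities, and no fold is given for it.

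XTH22 is the touch-induced gene TCH4. It had 1183 and 713 in 35S:NROB #2 leaves, against 1441 and 180 in WT leaves. The order of the genotypes was opposite on the 2 arrays, with log2 ratios of -0.28 and 1.98 and a limma adjusted p of 0.430. Most of this came from WT, where the intensity on array 1 was 7.99 times that on array 2. XTH1, XTH2, XTH3 and XTH14 stayed between 7.06 and 9.63 in all samples and are not measured here.

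XTH4 to XTH9, a set of 6 genes drawn after the values had been seen that stops short of XTH10, were flagged P on both arrays. Their median log2 ratio was -0.52, with -0.12 on array 1 and -1.05 on array 2, and the median of XTH1 to XTH11 was -0.15. XTH4, whose product acts in stem and wood walls, had 14569.5 and 10566 in 35S:NROB #2 leaves, against 12734 and 14868 in WT leaves. The order of the genotypes turned between the arrays. XTH7 had 10242 and 6603 in 35S:NROB #2 leaves, against 7947 and 13008 in WT leaves, and its order turned as well. XTH9 had 4652 and 3034 in 35S:NROB #2 leaves, against 5608 and 6642 in WT leaves. XTH6 had 3339 and 2249 in 35S:NROB #2 leaves, against 3795 and 6261 in WT leaves. For XTH6 and XTH9 both transgenic values lay below both WT values, with log2 ratios of -0.18 and -1.48 for XTH6 and -0.27 and -1.13 for XTH9. Their limma adjusted p values were 0.236 and 0.183. XTH5 had log2 ratios of -0.42 and -0.41 and XTH15 of -0.74 and -0.70, with limma adjusted p values of 0.135 and 0.0623. XTH8 had 1173 and 708 in 35S:NROB #2 leaves, against 1226 and 1612 in WT leaves. XTH16 had 374 and 247 in 35S:NROB #2 leaves, against 401 and 537 in WT leaves. Both genes were close to WT on array 1, at log2 ratios of -0.06 and -0.10, and near a 2-fold lower level on array 2, at -1.19 and -1.12.

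Group III was divided. XTH31 had 270 and 168 in 35S:NROB #2 leaves, against 1007 and 1684 in WT leaves. It was the member with the lowest ratio, at -1.90 and -3.32 on the arrays and a mean of -2.61 ± 1.01, or 6.11-fold lower, with a limma adjusted p of 0.0520, just outside the threshold. With the mean of all probes of each locus in the fit, its mean log2 ratio was unchanged and its limma adjusted p was 0.0343. The limma adjusted p was 0.0634 with probes flagged P on both arrays and 0.881 with an eBayes trend. Of 10 other settings that use both arrays, XTH31 passed in 2. XTH32 had 228 and 123 in 35S:NROB #2 leaves, against 357 and 440 in WT leaves. Its log2 ratios were -0.64 and -1.84 (limma adjusted p = 0.114), and its genotypes did not overlap. XTH31 and XTH32 are the group IIIA enzymes, known mainly as hydrolases of xyloglucan. The other 4 group III genes, XTH28, XTH29, XTH30 and XTH33, were above WT on both arrays, with means between 0.10 and 2.31. XTH33 was dim and flagged A on both arrays, with 59.4 and 38.9 in 35S:NROB #2 leaves, against 25.6 and 37.4 in WT leaves. Its log2 ratios were 1.21 and 0.056, and those of XTH28 were 0.017 and 0.19. XTH29 was flagged A on both arrays as well. The division into these 2 subgroups was drawn after the values had been seen and carries no test. XTH30 had 1052 and 1533 in 35S:NROB #2 leaves, against 822 and 772 in WT leaves, without overlap and with a limma adjusted p of 0.139. XTH28 had 2002 and 2503 in 35S:NROB #2 leaves, against 1978 and 2199 in WT leaves, and its genotypes overlapped.

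XTH26, known for expression in roots and root hairs, had 33.02 and 17.7 in 35S:NROB #2 leaves, against 59.6 and 87.8 in WT leaves. The transgenic spots were too dim to measure, so XTH26 was at least 1.71-fold lower by this probe. Its unbounded ratios gave a limma adjusted p of 0.103. Both arrays flagged this probe A, and a second probe of XTH26 as well. The second probe had 7.16 and 8.18 in 35S:NROB #2 leaves, against 7.52 and 8.05 in WT leaves. The mean log2 ratio over both probes was -0.80.

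**Figure D3:**
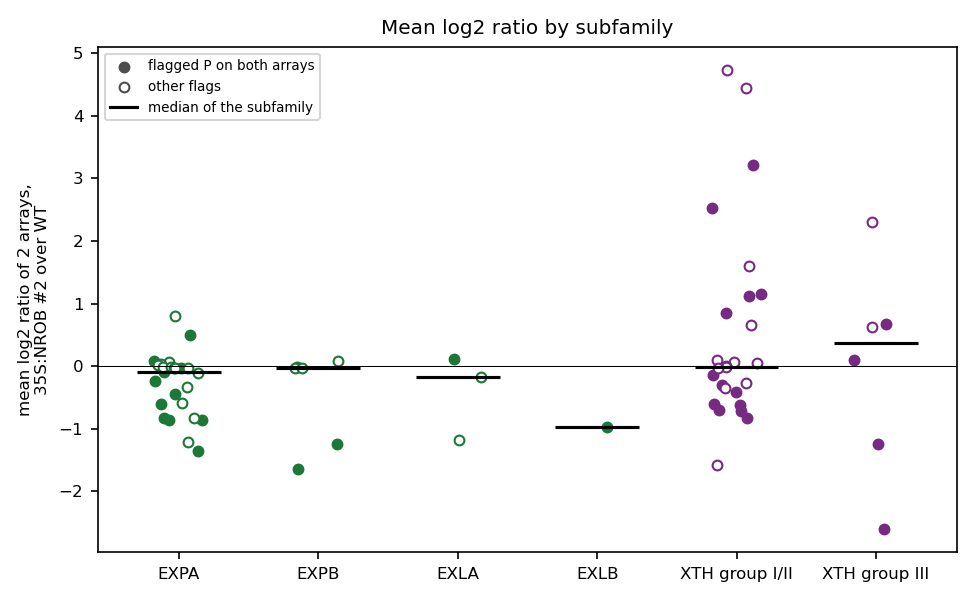
Mean log2 ratio of 2 arrays, 35S:NROB #2 over WT, for each gene by subfamily, with filled symbols for genes flagged P on both arrays and bars for the subfamily medians. The medians run from -0.97 for the single EXLB gene to 0.37 for XTH group III, and XTH groups I and II reach 4.73.

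Among the expansins, EXPB3, a beta-expansin, was the gene that fell. It had 233 and 139 in 35S:NROB #2 leaves, against 563 and 564 in WT leaves. The WT values were nearly the same on both arrays, and both transgenic values lay well below them. The log2 ratios were -1.27 and -2.02, with a mean of -1.65 ± 0.53, or 3.13-fold lower, and the limma adjusted p was 0.0478. Among probes flagged P on both arrays alone, the limma adjusted p was 0.0603. EXPB1, the other beta-expansin with bright spots, had 221 and 119 in 35S:NROB #2 leaves, against 268 and 547 in WT leaves. Its log2 ratios of -0.28 and -2.20 had the same sign but differed widely, and its limma adjusted p was 0.222. The remaining 4 beta-expansins, EXPB2, EXPB4, EXPB5 and EXPB6, lay between 6.32 and 9.44 in all samples and are not measured here.

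EXPA15 had 93.1 and 68.3 in 35S:NROB #2 leaves, against 162 and 260 in WT leaves. The genotypes did not overlap, and the log2 ratios were -0.80 and -1.93 (limma adjusted p = 0.0921). Its other probe was too dim to be flagged P on both arrays, and the mean over both probes had the opposite sign, 0.15. EXPA17 had 7.93 and 11.6 in 35S:NROB #2 leaves, against 13.1 and 37.5 in WT leaves. It passed the 2-fold rule, but its spots were flagged A and no fold is given. The expansin-like genes EXLA2 and EXLB1 belong to branches whose wall activity has not been established. EXLA2 had 96.9 and 51.0 in 35S:NROB #2 leaves, against 146 and 172 in WT leaves, with log2 ratios of -0.60 and -1.75 (limma adjusted p = 0.119). EXLB1 had 2062 and 1769 in 35S:NROB #2 leaves, against 3438 and 4071 in WT leaves. With a mean of -0.97 ± 0.33 it stood just inside a 2-fold change, its limma adjusted p was 0.0647, and its second probe gave -1.17.

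The alpha-expansins with the highest intensities, EXPA1, EXPA8, EXPA6 and EXPA11, had mean log2 ratios between -0.10 and 0.49. EXPA1, known for action in guard cells and in growing leaves, had 14494 and 15072 in 35S:NROB #2 leaves, against 9089 and 12110.0 in WT leaves. It was the only expansin among those flagged P on both arrays with higher values on both, at 0.67 and 0.32 (limma adjusted p = 0.144), and its second probe gave 0.55. EXPA8 had 13630.4 and 11290.2 in 35S:NROB #2 leaves, against 9452 and 14424 in WT leaves. EXPA6 had 9061 and 7475 in 35S:NROB #2 leaves, against 7825 and 9947 in WT leaves. EXPA11 had 3609 and 2646 in 35S:NROB #2 leaves, against 2471 and 3984 in WT leaves. In EXPA6, EXPA8 and EXPA11 the transgenic line was above WT on array 1 and below it on array 2. Their log2 ratios were 0.21, 0.53 and 0.55 on array 1 and -0.41, -0.35 and -0.59 on array 2. Means near 0 in these genes therefore do not show small ratios on each array. EXPA5 had 2211 and 1532 in 35S:NROB #2 leaves, against 2643 and 4230.1 in WT leaves, below WT on both arrays with log2 ratios of -0.26 and -1.47 (limma adjusted p = 0.205). EXPA9 had 89.9 and 109.7 in 35S:NROB #2 leaves, against 177 and 174 in WT leaves, a mean of -0.82 ± 0.22 (limma adjusted p = 0.0653). EXPA4 had 32.95 and 44.96 in 35S:NROB #2 leaves, against 61.5 and 75.6 in WT leaves. It was at least 1.61-fold lower, and its unbounded ratios gave a limma adjusted p of 0.0553. EXPA10, known for leaf growth, had 75.9 and 58.4 in 35S:NROB #2 leaves, against 93.3 and 108 in WT leaves (limma adjusted p = 0.159). EXPA3, EXPA13, EXPA16 and EXPA20, all flagged P on both arrays, had mean log2 ratios between -0.86 and -0.24, and EXPA3 alone of these had opposite signs on the arrays. EXPA7 and EXPA18, the expansins of root hairs, were flagged A on both arrays, with EXPA7 at 6.14 and 22.3 in 35S:NROB #2 leaves, against 6.37 and 7.07 in WT leaves. Altogether 13 expansins and 9 XTHs were too dim to measure in both genotypes.

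The arrays did not give the same size of change. Over the 67 members, Pearson's correlation of the log2 ratios of array 1 and array 2 was 0.859, beside 0.839 over 26385 loci. It was 0.885 for the 32 XTHs and 0.590 for the 35 expansins, where genes are not independent replicates. Over the 17 XTHs and 15 expansins flagged P on both arrays it was 0.821 and 0.719, while Spearman's correlation was 0.674 and 0.761, so the order of the families depended on the measure. The ratio was larger in size on array 2 for 44 of 67 members and for 18009 of 26385 loci. For members flagged P on both arrays the median SD of the 2 log2 ratios was 0.593, against 0.145 for all such loci. In the medians over the brightest members, the intensities fell from array 1 to array 2 in 35S:NROB #2 and rose in WT. Not every gene followed these medians. XTH24, XTH25 and XTH30 went the reverse way, XTH28 and EXPA1 rose in both genotypes, and XTH22 and EXLA1 fell in both. In the 10 expansins of highest intensity, the array 2 over array 1 ratio of intensity had a median of 0.779 in 35S:NROB #2 and 1.302 in WT. In the 10 XTHs of highest intensity it was 0.699 in 35S:NROB #2 and 1.14 in WT, whereas the medians over all loci flagged P on both arrays were 1.16 and 1.17.

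**Figure D4:**
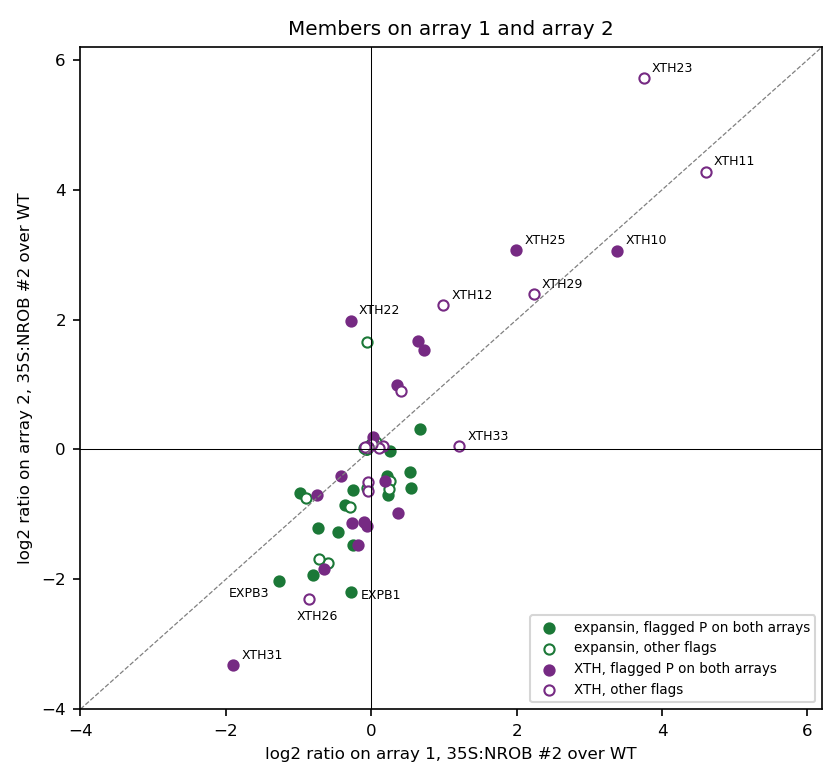
Log2 ratio of 35S:NROB #2 over WT on array 1 (horizontal) against array 2 (vertical) for 67 members, green for expansins and purple for XTHs, with the dashed line marking equal ratios. The XTHs that passed limma (XTH10, XTH11, XTH23, XTH25 and XTH29) lie between 2.39 and 5.72 on array 2 and between 2.00 and 4.60 on array 1, and a group near 0 on array 1 lies below 0 on array 2.

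Several members stand next to each other in the gene order of the TAIR10.1 assembly, but most of these neighbours were too dim to compare. On chromosome 4, XTH23 is followed by XTH14, which is not measured here. Also on chromosome 4, XTH24 and XTH18 adjoin, both flagged P on both arrays and both past 2-fold, with mean log2 ratios of 1.16 and 1.13. The next gene, XTH19, was too dim to measure, with 23.5 and 7.56 in 35S:NROB #2 leaves, against 21.9 and 7.45 in WT leaves. On chromosome 5, XTH13, XTH25 and XTH22 adjoin. XTH13 was too dim to measure, and XTH25 and XTH22 had mean log2 ratios of 2.54 and 0.85, with opposite signs on the arrays in XTH22. A run of 6 alpha-expansins on chromosome 5 (EXPA21 to EXPA26) was near the lowest intensities throughout, except EXPA26 on array 1 at 76.8 in 35S:NROB #2 and 80.03 in WT. Close relatives in such runs can share probe signal, which was not tested.

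**Figure D5:**
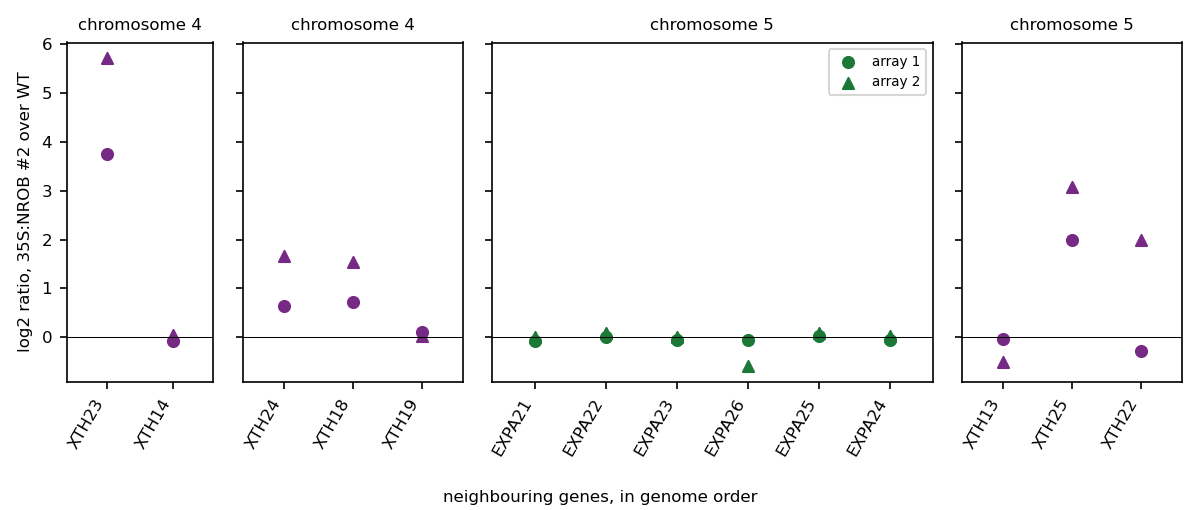
Log2 ratio of 35S:NROB #2 over WT on array 1 (circles) and array 2 (triangles) for members that adjoin in the genome, in gene order, purple for XTHs and green for expansins. XTH24 and XTH18 lie side by side above 0. XTH13, XTH14, XTH19 and the alpha-expansins on chromosome 5 were flagged A on at least 1 array, and for such dim spots a ratio near 0 gives no contrast with a neighbour.

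The listed genes that make the polymers on which both families act showed no call. Of 8 xyloglucan synthesis genes, none passed limma or the 2-fold rule, 5 were lower on both arrays and 3 had opposite signs, with a median log2 ratio of -0.19. XLT2, a galactosyltransferase of xyloglucan side chains, had log2 ratios of -0.01 and -0.99 (limma adjusted p = 0.335), and XXT2, a xylosyltransferase, had -0.20 and -0.61 (limma adjusted p = 0.216). Of 9 genes for cellulose of the primary wall, none passed limma, 6 were lower on both arrays and 3 had opposite signs, with a median of -0.28. CESA5, a cellulose synthase subunit, had the lowest ratios of these, -0.28 and -1.23 (limma adjusted p = 0.182). Of 3 xyloglucan trimming enzymes none passed limma, with a median of -0.23. A further locus listed with them, AT5G20950, had 13747 and 17598 in 35S:NROB #2 leaves, against 7341 and 7333 in WT leaves. It rose, with log2 ratios of 0.91 and 1.26 and a limma adjusted p of 0.0492, but the reference table does not pair the listed symbol with this locus, so it is not counted.

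The plasma membrane proton pumps acidify the wall and so set the pH at which expansins act. Of these pumps only AHA1 and AHA2 were listed, and neither passed limma or the 2-fold rule. AHA2 had 5292 and 7025 in 35S:NROB #2 leaves, against 3415 and 4609 in WT leaves. Its log2 ratios of 0.63 and 0.61 were nearly equal (limma adjusted p = 0.0748), while AHA1 had 0.10 and 0.20. Of 16 regulators of growth none passed limma, 9 were lower and 4 higher on both arrays, and their median was -0.13. The shares over all loci, for this list and for the xyloglucan and cellulose lists, are 36.0% lower and 34.8% higher. All genes of these lists were flagged P on both arrays. Among all loci so flagged, 43.3% were lower, 37.8% were higher and 18.9% had opposite signs. ANT, a factor that keeps organ cells dividing, had 259 and 227 in 35S:NROB #2 leaves, against 408 and 511 in WT leaves (limma adjusted p = 0.0739). DWF4, an enzyme of brassinosteroid synthesis, had 800.4 and 790.0 in 35S:NROB #2 leaves, against 1139 and 1496 in WT leaves (limma adjusted p = 0.0896). HBI1, a growth-promoting factor, had log2 ratios of 0.35 and 0.47 (limma adjusted p = 0.145).

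The root markers PYK10 and PRP3 rose in 35S:NROB #2, with WT spots too dim to measure. The transgenic spots of PYK10 lay above the lowest P-flagged intensity of their channel on both arrays. Those of PRP3 lay below it. The summed intensity of the 3 root markers was 97.4 and 113 in 35S:NROB #2 leaves, against 30.8 and 28.5 in WT leaves, with none of them P-flagged on both arrays. PYK10 made most of this sum in 35S:NROB #2, so it does not stand for the other markers. PYK10 had 62.5 and 81.6 in 35S:NROB #2 leaves, against 6.14 and 13.6 in WT leaves (limma adjusted p = 0.0272), PRP3 also passed limma and RHD6 did not. The summed intensity of the 3 flower markers was 81.1 and 157 in 35S:NROB #2 leaves, against 56.9 and 77.8 in WT leaves, and PI alone of them passed limma. The summed intensity of the 2 seed markers was 15.2 and 18.8 in 35S:NROB #2 leaves, against 14.2 and 20.0 in WT leaves. The part of RNA from other organs in the ratios of the wall genes was not tested.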

How the data were processed

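Amplified and labelled leaf RNA of both genotypes shared each of 2 Agilent arrays, with Cy5 on WT and Cy3 on 35S:NROB #2, per the labels. Agilent Feature Extraction 8.5.1.1 was used, per the submitters' processing notes. The deposited table holds, per the file headers, a normalized intensity for each channel and a log2 ratio by the authors of WT over 35S:NROB #2, turned here. The background correction and normalization are not given in the sources used here, so weak signals may be compressed or inflated. On array 2 the header read here as WT holds both genotype names, and the deposited ratio follows from it within 9.62e-07.

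Of 43603 gene probes, 36709 were given a locus with the TAIR10.1 reference table (34330 by accession, 1415 by locus, 752 by symbol and 212 by a locus that table lacks). The probe of highest mean intensity stood for each locus. Of 93 member probes, 2 had no locus. An intercept was fitted to the 2 log2 ratios with limma 3.58.1 (R 4.3.3, eBayes default, 1 residual degree of freedom), with Benjamini-Hochberg adjustment over 26385 loci. The script was tested on simulated data. Tables and plots used Python 3.11.15, pandas 2.3.3 and matplotlib 3.10.9. Precision is limited by the number of arrays.

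Members, lists and markers were chosen with earlier results of these data known. Named members were those past the 2-fold rule (up to 15 a family), those passing limma and the 5 of highest intensity in each family. Each list gave up to 3 genes by the size of the mean. Other members were added after their values were seen, to show subgroups and neighbours. Settings tried were centring, loess, quantile normalization, an offset, flag and intensity filters, the mean of probes, the series matrix values, an eBayes trend, separate channels and each array alone.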

Additional observations from a re-analysis of the deposited data

How the results depend on the processing

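Among the settings that use both arrays, 2 turned the sign of a named member, with EXPA11 at 0.0030 after loess and EXPA15 at 0.15 with the mean of its probes. On array 1 alone XTH4, XTH7, EXPA6 and EXPA11 turned to 0.19, 0.37, 0.21 and 0.55, and on array 2 alone EXPA8 turned to -0.35. The calls moved far more. Limma called 1534 loci, 71.3% of them higher, but 0 after median centring, loess, quantile normalization or the offset of 50, where 6411, 6556, 6822 and 7045 loci had an unadjusted p under 0.05, and where 0 XTHs and 0 expansins passed. It called 43 loci (93.0% higher) with probes flagged P on both arrays, with 1 XTH and 0 expansins, and 168 (85.1% higher) without the lower quartile of intensity, with 3 XTHs and 0 expansins. It called 2339 loci (61.8% higher) with the mean of probes, with 6 XTHs (5 higher and 1 lower, XTH31) and 3 expansins, and 5743 (47.3% higher) with an eBayes trend, with 11 XTHs and 9 expansins. Both arrays pair the genotypes, and the fit of 4 separate channels, with no replicate block, called 4011 loci (54.0% higher), 11 XTHs and 10 expansins. Past 2-fold were 2 expansins and 7 XTHs with the offset, and 3 expansins and 6 XTHs with probes flagged P on both arrays. With 1 array left out, 1 to 9 expansins and 7 to 16 XTHs were past 2-fold, the higher counts on array 2 alone. The expansin median was -0.61 with probes flagged P on both arrays, -0.60 without the lower quartile, and -0.48 to -0.065 on single arrays. The XTH median was -0.016 after loess, -0.053 after quantile normalization, -0.31 with probes flagged P on both arrays, 0.10 without the lower quartile, and 0.01 to 0.04 on single arrays. The expansin minus XTH difference was -0.70 without the lower quartile, and -0.52 to -0.076 on single arrays. The cause of these shifts was not tested.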

Other observations

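XTH27 (AT2G01850), which the array's annotation calls EXGT-A3, completes the XTH family of this array. It had 10356 and 12303 in 35S:NROB #2 leaves, against 8206 and 8471 in WT leaves, with log2 ratios of 0.34 and 0.54 and a limma adjusted p of 0.141. A second probe of the gene gave 0.24 and 0.36. A probe without a locus, annotated as similar to a cotton alpha-expansin, had 340.0 and 305 in 35S:NROB #2 leaves, against 424 and 650.4 in WT leaves, with log2 ratios of -0.32 and -1.09.

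The gene beside XTH10 in the TAIR10.1 order is PR1 (AT2G14610), a marker of salicylate-dependent defence. PR1 had 11258 and 20928 in 35S:NROB #2 leaves, against 168 and 185 in WT leaves, with log2 ratios of 6.06 and 6.82 and a limma adjusted p of 0.0148. On the other side of XTH10, AT2G14635 had 7.90 and 12.01 in 35S:NROB #2 leaves, against 6.41 and 7.0 in WT leaves, all flagged A. The neighbours were looked up after the values of XTH10 had been seen.

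XTH21 and EXPA26 separated the arrays in both genotypes. XTH21 had 42.7 on array 1 and 7.84 on array 2 in 35S:NROB #2 leaves, against 38.4 and 7.59 in WT leaves. EXPA26 had 76.8 and 7.71 in 35S:NROB #2 leaves, against 80.03 and 11.6 in WT leaves.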
